A study of Mus musculus with 15 samples.

Results

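Of the 23132 genes kept from the counts, 36 were examined here as genes of the vessel wall of the mouse forebrain. They were taken as a named list by cell type, put together with earlier results of these data known. The list holds 11 genes of endothelial junctions and surface, 5 endothelial receptor tyrosine kinases, 4 endothelial transcription factors, 5 transporters of the blood-brain barrier, 9 genes of mural cells and the 2 collagen IV chains of the vascular basement membrane. All 36 were in the count table. RNA-seq counts came from 15 libraries of polyA RNA from C57BL/6 mouse foetuses. E15.5 cerebral cortex was taken from 3 Phf6+/Y controls and from 5 Phf6-/Y foetuses. These carry a germline deletion of exons 4 and 5 of the X-linked gene Phf6, which removes the protein, while its other exons can still give reads. E16.5 cortical neurons, dissociated and kept in culture for a day, came from 3 Phf6+/Y;Nes-cre Tg/+ controls and 4 Phf6lox/Y;Nes-cre Tg/+ foetuses. Both neuron groups carried the Nestin-cre transgene, which is used to delete Phf6 in the nervous system, so vessel cells were not its intended target there. The cortices came from 3 litters and the neurons from 4, and litter 7 gave a Phf6-deleted culture but no control.

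Blood vessels grow into the foetal cortex from the plexus around the brain. Endothelial cells line the vessel, are held together by cadherin and claudin junctions, and respond to VEGF and angiopoietins through receptor tyrosine kinases. In the brain they form a barrier with its own transporters, and pericytes and smooth muscle cells, together called mural cells, sit on the outside within a shared basement membrane rich in collagen IV.

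Totals ran from 16858007 to 31157700 counts per library. Phf6, the targeted gene, was at 149 to 191 CPM (the usual library-scaled counts, with TMM factors) in control cortex and at 42.4 to 55.2 CPM in Phf6-/Y cortex. In neurons it was at 228 to 259 CPM in controls and 59.9 to 85.8 CPM in Phf6-deleted cultures, so the labels held in all 15 libraries. The 8 markers of cortical neurons summed to 5259 to 7133 CPM in cortex and 9608 to 10845 CPM in the cultures.

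**Figure D1:**
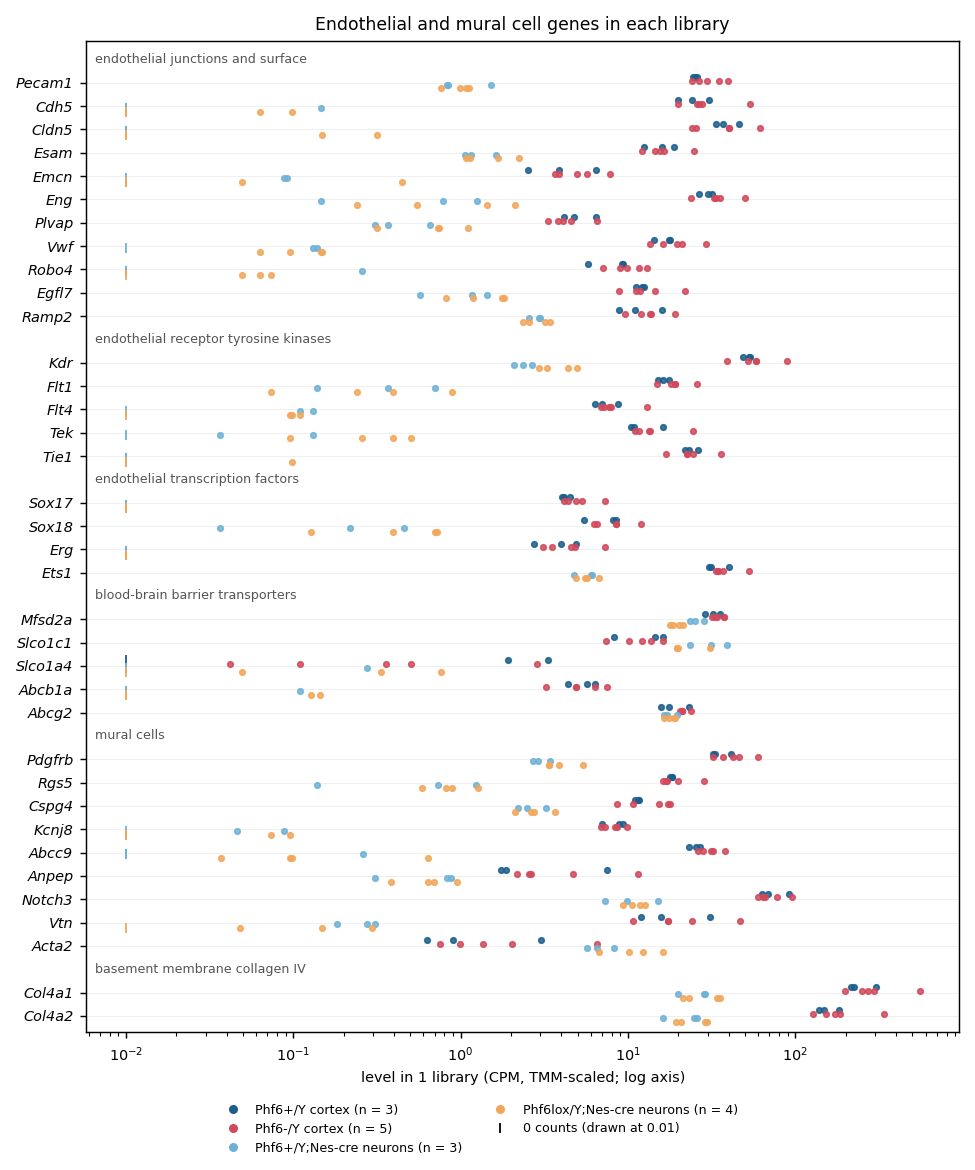
Level of each of the 36 genes in each library (CPM on a log axis, 1 point per library, coloured by group; ticks at 0.01 mark libraries with 0 counts). Most genes sit 1 or more decades lower in the neuron cultures, while Mfsd2a and Abcg2 stay close to their cortex level and Slco1c1 and Acta2 lie to the right of it.

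In control cortex the vessel genes were readily detected, and the basement membrane led. Per length, Col4a1 was the highest of the 36, at 37.4 ± 7.41 RPKM (CPM per kilobase of exon, SD, n = 3), followed by Cldn5 at 27.4 ± 4.43 RPKM and Col4a2 at 24.3 ± 3.56 RPKM. Cldn5, a claudin that seals endothelial junctions, and Col4a2 did not differ beyond that spread. In the other groups of genes the highest were Mfsd2a among the transporters at 15.0 ± 1.55 RPKM, Vtn among the mural genes at 11.2 ± 5.71 RPKM, Kdr among the receptors at 9.48 ± 0.478 RPKM and Ets1 among the transcription factors at 6.73 ± 1.07 RPKM. Slco1a4, a carrier of organic anions, was the lowest at 0.459 ± 0.437 RPKM, and Acta2, the smooth muscle actin, was next at 0.855 ± 0.734 RPKM. The defining endothelial markers Pecam1, Cdh5, Cldn5, Kdr and Tie1 were thus all present in cortex, at 20 CPM or more in each control library.

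A single cortex stood apart for these genes. Phf6-/Y replicate 4 was the highest of the 8 cortices in 30 of 36 genes, while it was the highest for 11.5% of all 14750 genes tested. Against the median of the other 7 cortices its level was 1.6-fold (median over the 36 genes), with 35 of 36 above 1, while the median over all genes was 0.991-fold. Its litter mate Phf6-/Y replicate 5 was the lowest of the 8 in 17 of 36 genes, against 14.5% of all genes. Between these 2 Phf6-deleted foetuses of litter 1 all 36 genes were higher in replicate 4, by 1.04-fold for Mfsd2a up to 68.4-fold for Slco1a4, with a median of 2-fold. The Slco1a4 ratio rests on 84 counts against 1, and the next largest was 8.73-fold for Acta2. In the same litter, control replicate 3 was the highest of the 3 controls in 26 of 36 genes, against 36.6% of all genes.

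Markers of some other cells, but not of all, were also high in Phf6-/Y replicate 4. Of 8 meningeal fibroblast genes (Col1a1, Col1a2, Col3a1, Lum, Dcn, Ogn, Crabp2 and Slc6a13), 6 were highest in Phf6-/Y replicate 4, and none was at 0 in either cortex group. Their summed level was 549 CPM in Phf6-/Y replicate 4 and 289 CPM in control replicate 3, against 16.1 to 115 CPM in the other 6 cortices. Genes of the choroid plexus summed to 377 CPM in Phf6-/Y replicate 4, but to 502 and 379 CPM in control replicates 2 and 3 and to 17.4 to 114 CPM in the rest. Microglia and macrophage genes summed to 81.2 CPM in Phf6-/Y replicate 4 and 66.4 CPM in control replicate 3, against 37.2 to 63.8 CPM in the other 6. All 10 of them were above the median of the other 7 cortices in Phf6-/Y replicate 4, by a median of 1.66-fold, and 5 of 10 were highest there. Of 7 erythroid genes 5 were highest in Phf6-/Y replicate 4, with a median of 1.64-fold over the other 7 cortices and of 2.06-fold over replicate 5 (6 genes each), although their sum of 316 CPM lay within the 139 to 403 CPM of the other cortices. These medians were close to the 1.6-fold and 2-fold of the vessel genes. Radial glia genes summed to 1685 CPM in Phf6-/Y replicate 4, the lowest of the 8 by a small margin. Against the median of the other 7 cortices they were there at 0.921-fold and the cortical neuron genes at 0.934-fold (medians). Genes of oligodendrocyte precursors were at 0.94-fold, although their sum of 80.4 CPM was the highest of the 8. The part of meningeal, choroid plexus, microglial or blood cells in the spread of the vessel genes was not tested.

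**Figure D2:**
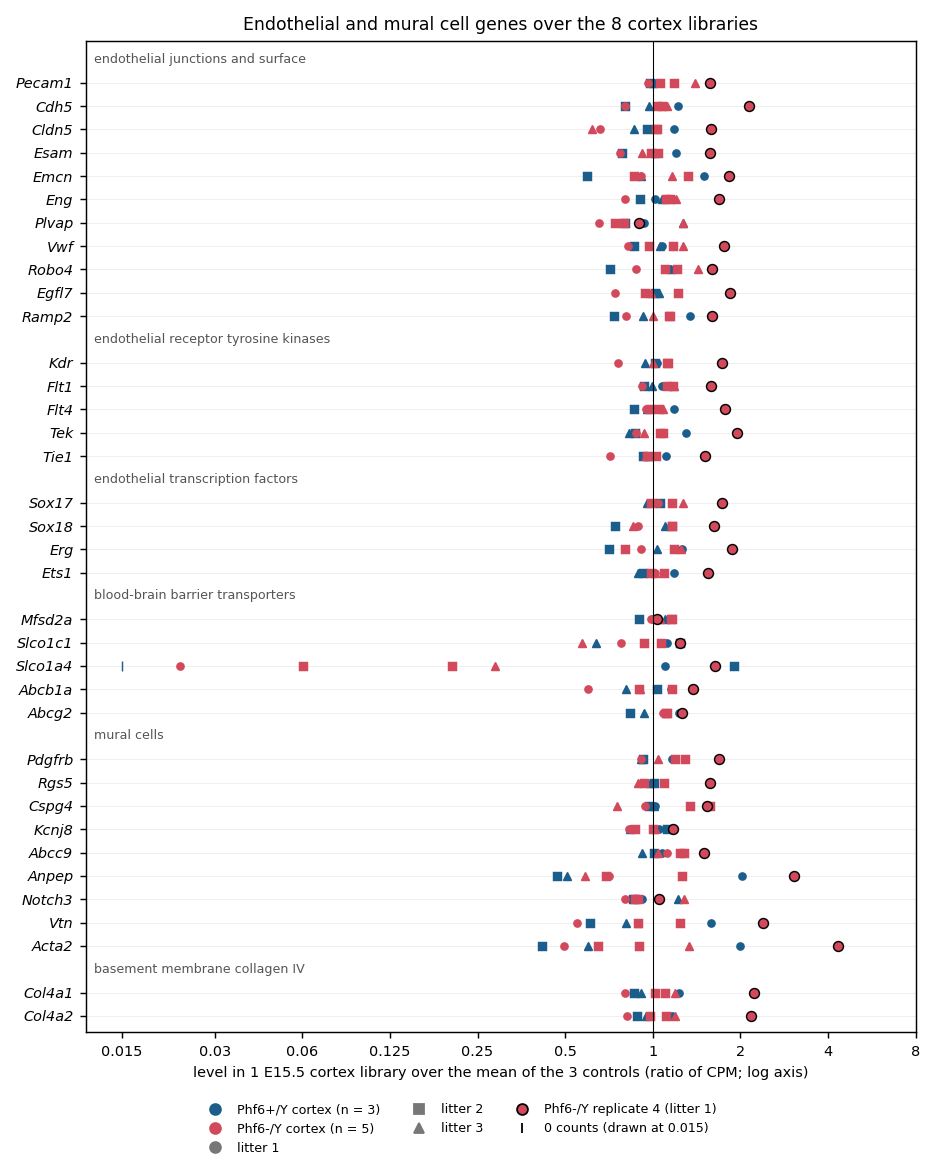
Level of each gene in each E15.5 cortex divided by the mean of the 3 controls (ratio on a log axis; colour gives genotype, shape gives litter, the black outline marks Phf6-/Y replicate 4, and a tick marks a library with 0 counts). The outlined point lies furthest to the right in 30 of 36 genes, and the other 7 cortices cluster around 1 for most genes.

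The comparison of Phf6-/Y with Phf6+/Y cortex asks whether loss of Phf6 in the whole foetus altered the vascular genes. None of the 36 passed a false discovery rate (FDR, Benjamini-Hochberg) of 0.05 in edgeR's quasi-likelihood test, fitted with a term for litter. By this call 0.386% of all genes passed. At an unadjusted p under 0.05, 1 of 36 was found by edgeR, where 10.5% of all genes were, and DESeq2 and limma-trend also called none, with 2 and 1 at that unadjusted p. The log2 fold change was positive in 30 of 36, with a median of 0.19, while 49.4% of all genes were positive and their median was below 0.01 in size. In no gene did all Phf6-/Y cortices lie above or all below the controls, where 2.47% and 2.55% of all genes did. The count of positive values moved with 1 library. Without Phf6-/Y replicate 4 the log2 fold change was positive in 21 of 36 with a median of 0.04. Without Phf6-/Y replicate 5 it was positive in 33 of 36 with a median of 0.32. In that last fit 19 of the 36 had an unadjusted p under 0.05 in edgeR. The share of all genes at that p was not taken there, so this count has no background. In the same fit 0 of the 36 passed the FDR, where 0.548% of all genes did. Since these libraries are whole tissue, a different number of vessel cells and a different amount of RNA per vessel cell cannot be told apart in any of these values.

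Abcc9, the sulphonylurea receptor subunit of the pericyte potassium channel, had the smallest p of the 36 in cortex. It was at 23.2, 25.5 and 27.1 CPM in the controls and at 26.3, 32.3, 31.3, 38.0 and 28.2 CPM in Phf6-/Y replicates 1 to 5. The highest control lay above the lowest Phf6-/Y library, so the groups overlapped. Its log2 fold change was 0.27 ± 0.11 (SE, edgeR, FDR = 0.385). Kcnj8, the pore subunit of the same channel and its neighbour on chromosome 6, was at 7.01 to 9.39 CPM in controls and 6.94 to 9.83 CPM in Phf6-/Y cortex.

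Among the endothelial junction and surface genes, 9 of 11 log2 fold changes in cortex were positive, with a median of 0.26. Pecam1, an adhesion molecule of the endothelial border, was at 25.1, 24.6 and 25.8 CPM in the controls and at 35.1, 29.8, 26.6, 39.6 and 24.2 CPM in Phf6-/Y cortices. All but replicate 5 of the Phf6-/Y cortices were above the controls, and the log2 fold change was 0.31 ± 0.15 (SE, edgeR FDR = 0.496). Pecam1 was picked for description after its values were seen. Cldn5 was at 33.6, 37.2 and 45.8 CPM in the controls and at 24.1, 39.9, 40.2, 61.5 and 25.5 CPM in Phf6-/Y cortices, which held both the highest and the lowest of the 8. Cdh5, the endothelial cadherin, ran from 20 to 30.4 CPM in controls and from 19.9 to 53.4 CPM in Phf6-/Y cortex. Esam, Emcn, Eng, Plvap, Vwf, Robo4, Egfl7 and Ramp2 overlapped between the genotypes as well, and Plvap, which forms the diaphragms of leaky vessels, was the 1 gene of the 11 whose highest cortex was not Phf6-/Y replicate 4.

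The 5 receptor tyrosine kinases all had positive log2 fold changes in cortex, with a median of 0.19, and none passed. Kdr, the main VEGF receptor, was at 48.8, 52.8 and 53.7 CPM in controls and at 52.0, 58.3, 58.0, 89.3 and 39.3 CPM in Phf6-/Y cortices. The lowest and the highest of the 8 values were both Phf6-/Y libraries of litter 1. Flt1 and Flt4, the other VEGF receptors, and Tek and Tie1, the angiopoietin receptor pair, were also highest in Phf6-/Y replicate 4, at 1.47- to 2.07-fold the median of the other cortices.

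Sox17, Sox18, Erg and Ets1, SOX and ETS factors of endothelial identity, had a median log2 fold change of 0.23 in cortex, and none passed. Ets1 was at 30.4, 31.5 and 40.3 CPM in controls and at 34.6, 33.6, 37.2, 52.5 and 34.6 CPM in Phf6-/Y cortices. The Phf6-/Y values other than replicate 4 lay inside the range of the controls. Windows from 250 bases before to 50 bases after an annotated start were read from RefSeq (GRCm38.p6) for 26 of the 36 genes and searched on both strands. CAGGAAG, a form of the core that ETS factors bind, was in 19.2% of these 26 genes and in 14.8% of all genes with a window. The related CCGGAAG, which cannot share bases with it, was in 0 of 26 and in 9.93% of all genes. AACAAT, a SOX-type core, was in 15.4% of the 26 genes and in 12.2% of all. The CArG box, bound by serum response factor, was in 0 of 26, Acta2 included, and in 1.81% of all. The letters were therefore about as frequent as elsewhere or absent. Emcn, the sialomucin endomucin, and an inner start of Erg held both CAGGAAG and AACAAT, and are shown with these letters, on either strand, in capitals. The Erg window is chr16:95459299-95459598, minus strand, and the Emcn window is chr3:137340828-137341127, plus strand.
Erg: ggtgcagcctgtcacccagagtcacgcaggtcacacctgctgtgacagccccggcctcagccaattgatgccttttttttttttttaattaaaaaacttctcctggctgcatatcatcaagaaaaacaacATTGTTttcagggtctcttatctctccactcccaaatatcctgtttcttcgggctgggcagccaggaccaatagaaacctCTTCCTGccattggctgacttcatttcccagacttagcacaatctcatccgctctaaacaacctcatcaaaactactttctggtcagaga
Emcn: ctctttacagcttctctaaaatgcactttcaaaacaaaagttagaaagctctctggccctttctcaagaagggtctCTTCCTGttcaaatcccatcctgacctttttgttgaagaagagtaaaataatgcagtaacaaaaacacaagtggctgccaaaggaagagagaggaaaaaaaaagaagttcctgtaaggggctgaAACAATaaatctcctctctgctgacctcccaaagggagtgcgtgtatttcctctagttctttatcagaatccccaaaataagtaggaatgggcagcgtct

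The barrier transporters behaved less alike than the other groups in cortex. Only 2 of the 5 were highest in Phf6-/Y replicate 4, and the median log2 fold change was -0.05. Mfsd2a, which carries lysophospholipids and keeps transcytosis low at the barrier, was at 35.6, 29.0 and 32.4 CPM in controls and at 34.1, 37.4, 37.5, 33.3 and 31.9 CPM in Phf6-/Y cortices. Its 8 values lay within 1.29-fold of each other, and replicate 4 was not apart. Slco1a4 was at 0, 3.33 and 1.93 CPM in controls and at 0.504, 0.358, 0.11, 2.86 and 0.0418 CPM in Phf6-/Y cortices. The 3 cortices above 1 CPM were those with choroid plexus sums of 377 CPM and more. Its log2 fold change of -1.21 had a standard error of 1.74. Slco1c1, the thyroxine carrier, ran from 7.39 to 16.1 CPM over all 8 cortices, Abcb1a, the efflux pump P-glycoprotein, from 3.26 to 7.48 CPM and Abcg2, another efflux pump, from 15.8 to 23.8 CPM.

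Of the 9 mural genes, 8 had a positive log2 fold change in cortex, with a median of 0.26. Vtn, a matrix protein made by pericytes, was at 15.8, 11.9 and 30.8 CPM in controls and at 17.3, 24.1, 17.3, 46.6 and 10.7 CPM in Phf6-/Y cortices. Its 2 highest values were control replicate 3 and Phf6-/Y replicate 4, the cortices with the highest meningeal sums. The same 2 cortices were highest for Anpep, an aminopeptidase of pericytes and fibroblasts, at 7.54 and 11.4 CPM against 1.74 to 4.70 CPM elsewhere. They were also highest for Acta2, at 3.02 and 6.57 CPM against 0.634 to 2.02 CPM. Pdgfrb, the PDGF receptor that recruits pericytes, varied less, from 32.4 to 59.9 CPM, and Rgs5, Cspg4 and Notch3 overlapped between genotypes. Notch3 had the tightest genotype estimate of the 36, with the smallest standard error of 0.0844 on the log2 scale.

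Col4a1 and Col4a2 encode the chains of the same trimer and lie head to head on chromosome 8. In GRCm38.p6 the minus strand Col4a1 ends at 11312889 and the plus strand Col4a2 begins at 11312805, so that the gene records share 85 bases. Reads there cannot be assigned to either gene without strand, and the strand setting of the counting is not given in the sources used here. The 300-base windows at their starts share 78 bases, shown in capitals as each gene reads them, for chr8:11312777-11313076 (Col4a1, minus strand) and chr8:11312555-11312854 (Col4a2, plus strand).
Col4a1: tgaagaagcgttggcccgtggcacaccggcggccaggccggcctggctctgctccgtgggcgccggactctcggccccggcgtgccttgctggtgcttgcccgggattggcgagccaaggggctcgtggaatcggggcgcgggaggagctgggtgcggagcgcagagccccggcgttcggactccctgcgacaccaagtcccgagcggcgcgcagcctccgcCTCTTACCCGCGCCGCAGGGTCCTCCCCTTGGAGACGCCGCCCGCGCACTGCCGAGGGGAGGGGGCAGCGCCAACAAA
Col4a2: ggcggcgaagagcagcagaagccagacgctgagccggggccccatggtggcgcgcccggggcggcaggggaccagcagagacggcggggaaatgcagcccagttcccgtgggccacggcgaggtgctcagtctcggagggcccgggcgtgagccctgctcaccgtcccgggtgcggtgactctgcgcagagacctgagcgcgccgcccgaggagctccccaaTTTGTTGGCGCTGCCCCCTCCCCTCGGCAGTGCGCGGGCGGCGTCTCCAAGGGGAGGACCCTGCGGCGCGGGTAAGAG
Col4a1 was at 225, 214 and 304 CPM in control cortices and at 296, 273, 251, 553 and 198 CPM in Phf6-/Y cortices. Col4a2 was at 148, 138 and 182 CPM in controls and at 186, 173, 153, 338 and 127 CPM in Phf6-/Y. The cortices fell in nearly the same order for both genes, and Phf6-/Y replicate 4 was at 2.2-fold and 2.21-fold the median of the other 7. Neither passed the genotype test, and their median log2 fold change was 0.31.

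Within litters the sign was not uniform. In litter 1, the mean of Phf6-/Y replicates 4 and 5 was above the control in 24 of 36 genes. In litter 2 the mean of its 2 Phf6-/Y cortices was above the control in 31 of 36 genes, and in litter 3 the single Phf6-/Y cortex was above in 26 of 35. The median log2 differences were 0.12, 0.30 and 0.18. Each litter had a single control cortex, and genes of the same library are not independent. The share of all genes above the control was not taken within litters, so these counts are a description.

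The second genotype comparison, in cultured neurons, rests on few vessel reads. Only 20 of 36 genes passed the filter on low counts there, and 16 could not be tested. None of the 20 passed an FDR of 0.05 in edgeR, DESeq2 or limma-trend, where 0.273% of all 13909 genes passed in edgeR. At an unadjusted p under 0.05 each tool found 4 of 20, where edgeR found 10.3% of all genes. The log2 fold change was positive in 15 of 20, with 50.3% of all genes positive. The median was 0.07 in the 20 genes and below 0.01 over all genes.

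Mfsd2a, on chromosome 4 at 122946850 to 122961194, had the smallest p in neurons. It was at 23.5, 28.5 and 25.3 CPM in controls and at 20.2, 17.8, 21.3 and 18.7 CPM in Phf6-deleted cultures. Every Phf6-deleted culture was below every control, as in 3.62% of all genes. The log2 fold change was -0.42 ± 0.10 (SE, edgeR, FDR = 0.127), and the differences within litters 4, 5 and 6 were -0.40, -0.42 and -0.43. In cortex the same gene gave 0.11 ± 0.09, and the difference between neurons and cortex was -0.54 ± 0.14 (edgeR interaction, FDR = 0.623). None of the 36 passed that interaction test, where 0.0133% of all genes did. Mfsd2a was the 1 gene of 36 with an unadjusted p under 0.05 in it, where 5.19% of all genes had one.

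Slco1c1 was at 39.2, 23.5 and 31.4 CPM in control neurons and at 19.6, 30.9, 19.7 and 19.8 CPM in Phf6-deleted neurons. Phf6-deleted replicate 2 lay among the controls and the other 3 below them. The log2 fold change was -0.42 ± 0.11 (SE, edgeR, FDR = 0.139), and it was negative within each of litters 4, 5 and 6.

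Acta2 went the other way. It was at 8.29, 6.55 and 5.66 CPM in control neurons and at 12.3, 16.1, 10.1 and 6.73 CPM in Phf6-deleted neurons. Replicate 4 of the Phf6-deleted cultures lay within the range of the controls. The fitted log2 fold change was 0.63 ± 0.17 (SE, edgeR, FDR = 0.161). Leaving out either library of litter 6 brought it past the threshold. The FDR was 0.00754 without control replicate 3 and 0.0209 without Phf6-deleted replicate 4, where 3.51% and 2.77% of all genes passed. With litter as a fixed term both omissions take out the genotype difference of litter 6, so they are not separate results. Acta2 passed in only these 2 of 7 omissions of 1 library. Without control replicate 1 the log2 fold change of Acta2 was 0.44 and did not pass. With no filter on low counts Acta2, Mfsd2a and Slco1c1 also passed, at FDRs of 0.0112, 0.0177 and 0.00944, when 1.64% of all genes passed.

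Kdr was at 2.35, 2.08 and 2.68 CPM in control neurons and at 3.30, 4.38, 4.96 and 2.93 CPM in Phf6-deleted neurons. These values stand for 45 to 119 counts per library. All Phf6-deleted cultures were above all controls, as in 3.61% of all genes. On the log2 scale the fold change was 0.76 ± 0.28 (SE, edgeR, FDR = 0.343). The meningeal fibroblast genes summed to 5.79 to 7.37 CPM in control neurons and 8.21 to 8.87 CPM in Phf6-deleted neurons, and their part in the Kdr and Acta2 values was not tested. Of the markers of other cells only Ttr, the transthyretin of the choroid plexus, passed the genotype test in neurons, at a log2 fold change of 2.84 ± 0.27 (SE, edgeR FDR = 1.88e-04).

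**Figure D3:**
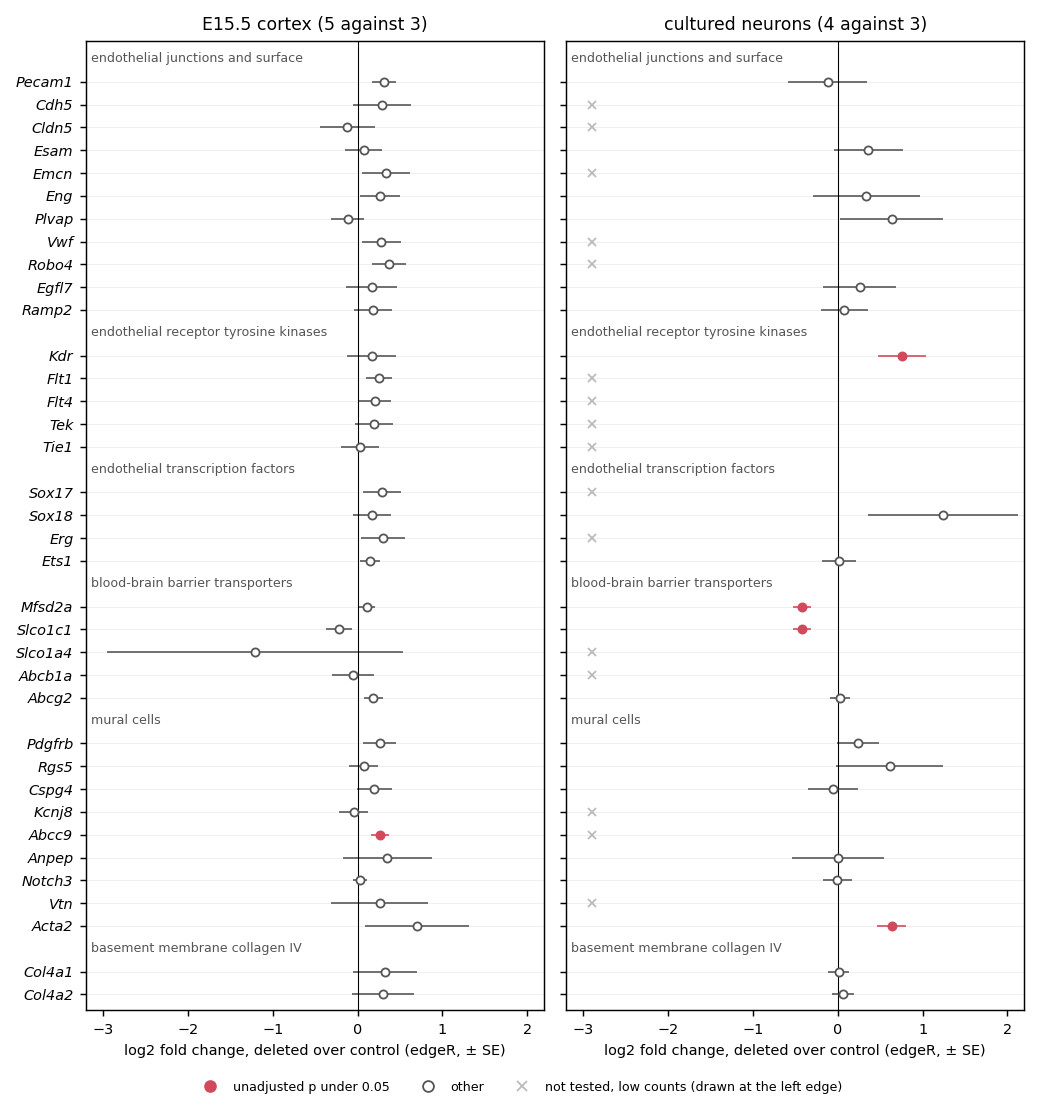
Log2 fold change of Phf6-deleted over control (edgeR, bars are SE) in E15.5 cortex on the left and cultured neurons on the right; filled points have an unadjusted p under 0.05 and crosses mark genes not tested. No gene passed an FDR of 0.05 in either comparison, 30 of 36 points lie right of 0 in cortex, and Mfsd2a and Slco1c1 lie left of 0 in neurons.

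The largest contrast for these genes was between the preparations. Control neurons were compared with control cortex in a fit over all 15 libraries. The preparations also differed in stage, in dissociation and culture, in the Nestin-cre transgene and in litter, and these cannot be told apart. At an FDR of 0.05, 32 of 36 genes were lower and 2 were higher in control neurons, where 27.3% and 24.8% of all 15001 genes were. The median log2 fold change was -4.62, also when genes with no reads in neurons were set at the bound that 3 counts allow, and -0.04 over all genes. Of the 32, 31 were lower by at least 2-fold, where 13.6% of all genes were, and 20 by at least 16-fold, where 1.78% were. Because 16 genes entered this test only through their cortex level, their fall is a description. The median and the 2-fold and 16-fold counts include these genes. Of the genes that passed the filter in neurons alone, only Pecam1, Eng, Kdr, Sox18 and Rgs5 were lower by at least 16-fold. Of the 20 that passed the filter in neurons alone, 17 were lower, 2 higher and 1 not called. Phf6-deleted neurons against Phf6-deleted cortex gave 33 lower and 2 higher of 36, where 31% and 27.9% of all genes were. That comparison contrasted other libraries, but in the same fit with the same filter and shared spread estimate. Most litters also gave both genotypes, so it is not independent of the first. In it 31 were lower by at least 2-fold, where 15.3% of all genes were, and the median log2 fold change was -4.26. There too 16 genes entered only through cortex, 15 of them lower, and of the 20 that passed in neurons 18 were lower and 2 higher.

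The endothelial genes other than the transporters had the lowest median shares of their cortex level. Over the 11 junction and surface genes the level in control neurons was 2.47% of that in control cortex (median). It was 1.1% over the 5 receptors and 1.63% over the 4 transcription factors. Of these groups only 6 of 11, 1 of 5 and 2 of 4 genes passed the filter in neurons. The others entered through cortex alone, so these medians and their order are a description. Cldn5 had 0 counts in all 3 control neuron libraries against 3148 in control cortex, which makes it at least 918-fold lower (floor of 3 counts over the group). It had 3, 0, 5 and 0 counts in the Phf6-deleted cultures. Tie1 had 0 counts in the control cultures, at least 565-fold lower, and 2 counts in all Phf6-deleted cultures. Sox17 and Erg had 0 counts in all 7 cultures and were at least 101-fold and 92.7-fold lower in controls, and at least 147-fold and 132-fold lower in Phf6-deleted samples. Cdh5 had 4 counts in controls and 3 in Phf6-deleted cultures, the latter a 878-fold difference with a 95% counting interval of 300 to 4261. These intervals and floors cover counting error only. Cldn5, Tie1, Sox17, Erg and Cdh5 entered the comparison only through cortex, so their falls are a description.

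Some endothelial genes kept more of their cortex level. Ramp2, a co-receptor for adrenomedullin, was at 23.8% of cortex, Egfl7 at 8.84% and Esam at 8.11%. Ets1 was at 6.02, 6.09 and 4.74 CPM in control neurons, the highest share of its cortex level among the 4 transcription factors. Pecam1 was at 0.844, 1.52 and 0.833 CPM in control neurons, 4.23% of its cortex level, and its log2 fold change was -4.57 ± 0.23 (SE, edgeR FDR = 4.83e-10). Kdr was at 4.57%. The remaining ones were at 8.71% for Plvap, 3.26% for Sox18, 2.47% for both Eng, a TGF-beta co-receptor, and Flt1, 1.4% for Emcn, 1.1% for Flt4, 1.05% for the guidance receptor Robo4, 0.543% for Vwf, the von Willebrand factor, and 0.446% for Tek. Of these, Plvap, Sox18 and Eng passed the filter in neurons and were called lower in controls. The other 6 entered only through cortex, so their shares are a description.

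Of the 5 transporters, Abcg2, Mfsd2a and Slco1c1 kept most of their cortex level or exceeded it, and Abcb1a and Slco1a4 did not. Abcg2 was at 17.1 and 19.5 CPM in control neuron replicates 1 and 2 and just below them in replicate 3, against 17.6, 15.8 and 23.2 CPM in control cortex. The groups overlapped, and the log2 fold change was -0.09 ± 0.13 (SE, edgeR FDR = 0.594), a difference that leaving out control cortex replicate 3 turned to 0.08. In Phf6-deleted samples it was -0.26 ± 0.11 (FDR = 0.0496), and this call was lost under 12 of 15 omissions of 1 library. Mfsd2a was at 79.7% of the cortex level in controls and 56% in Phf6-deleted samples, with log2 fold changes of -0.33 ± 0.11 (edgeR FDR = 0.0173) and -0.84 ± 0.09 (FDR = 4.91e-07). The first call was lost without control cortex replicate 1 (FDR = 0.0978) and without control neuron replicates 1 (0.0792) or 3 (0.0507). Slco1c1 was at 242% of its cortex level in controls and 189% in Phf6-deleted samples, with all control neuron libraries at 23.5 CPM or more and all control cortices at 16.1 CPM or less. These gave log2 fold changes of 1.28 ± 0.29 (FDR = 0.002) and 0.92 ± 0.24 (FDR = 0.00404). Abcb1a was at 0.671% of cortex in controls and Slco1a4 at 5.26%, among the shares of the other endothelial genes. Both entered only through cortex, so these shares are a description. Slco1a4 was not called in either genotype, and in controls it passed without control cortex replicate 1 (FDR = 0.0276), the cortex where it was at 0, or without Phf6-/Y cortex replicate 4 (FDR = 0.0346).

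Among the mural genes the channel pair had the lowest shares of the cortex level. Abcc9 was at 0.347% and Kcnj8 at 0.531% of cortex in controls, with 0 to 10 counts per culture for Abcc9 and 0 to 2 for Kcnj8. Rgs5 was at 3.85% and Vtn at 1.31%. Abcc9, Kcnj8 and Vtn entered the comparison only through cortex, so their shares are a description. Pdgfrb, Notch3, Anpep and Cspg4 were at 8.47%, 14.5%, 18.1% and 23.2%. Anpep was called lower in controls, but not without control cortex replicate 3 (FDR = 0.0868), the cortex where it was highest, nor without control neuron replicate 3 (FDR = 0.0504), nor with litter as a random block (limma-voom, log2 fold change -2.15, FDR = 0.0782). Acta2 was at 449% of its cortex level in controls and 484% in Phf6-deleted samples, with all 7 cultures at 5.66 CPM or more and 7 of 8 cortices at 3.02 CPM or less. Its log2 fold changes were 2.18 ± 0.74 (edgeR FDR = 0.0247) and 2.26 ± 0.58 (FDR = 0.00416). The first call was lost without control cortex replicate 1 (FDR = 0.0922) or 2 (0.085) and without control neuron replicate 1 (0.0652). Col4a1 and Col4a2 were at 10.4% and 14.4% of cortex in controls, at 20 to 28.9 CPM and 16.2 to 26.0 CPM.

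Other cell types were lower in the cultures too. The median level in control neurons was 10.7% of cortex over the meningeal fibroblast genes, 6.07% over the erythroid genes, 4.8% over the choroid plexus genes, 23.9% over the genes of oligodendrocyte precursors and 26.7% over the radial glia genes. The microglia and macrophage genes were at 52.5%, and the genes of cortical neurons at 170%. The median of the 25 endothelial genes, transporters included, was 2.47% and that of the 9 mural genes 8.47%. Of these, 12 of 25 and 6 of 9 passed the filter in neurons, as did 3 of 7 erythroid and 4 of 7 choroid plexus genes. The medians include genes too low for that filter, so their order is a description.

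**Figure D4:**
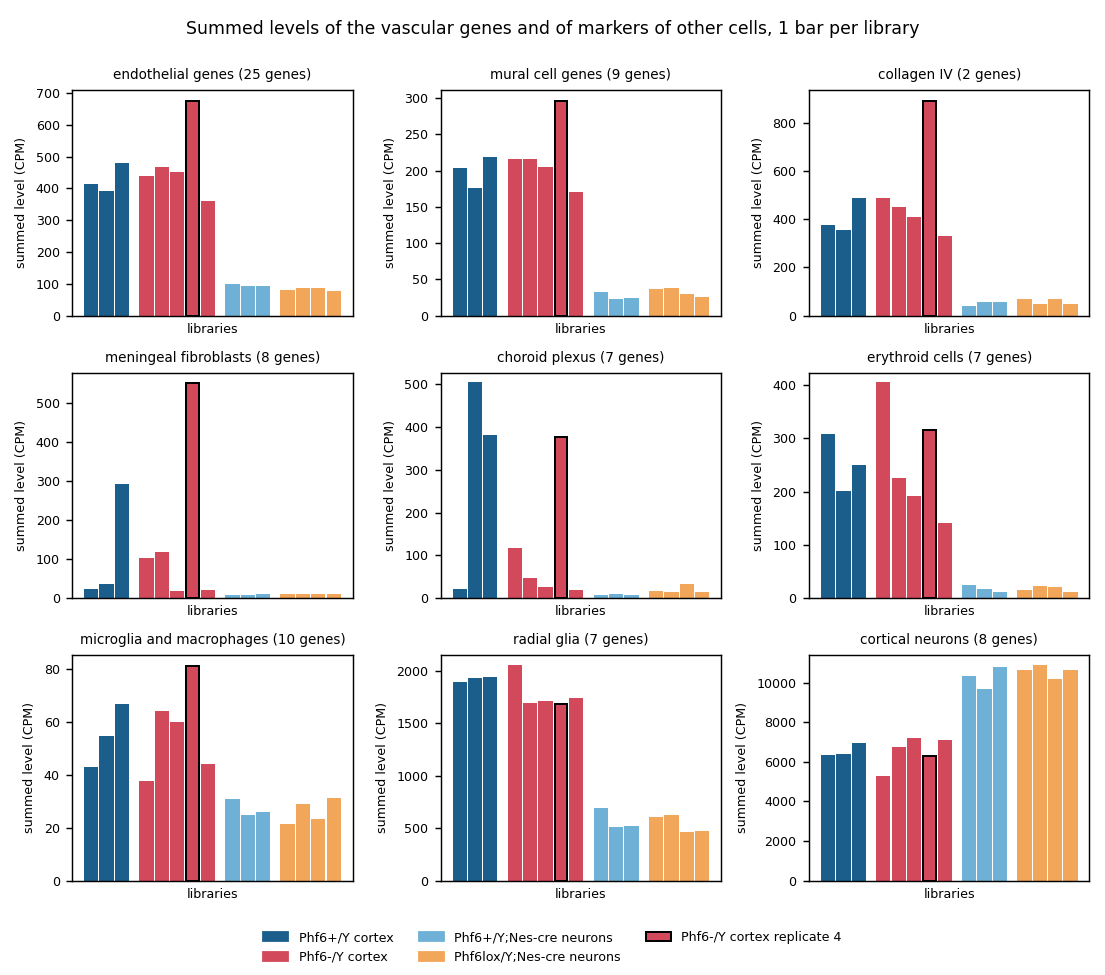
Summed level (CPM, linear axes from 0) of the endothelial, mural and collagen IV genes and of markers of 6 other cell types, 1 bar per library, coloured by group. Phf6-/Y cortex replicate 4 (outlined) is highest for the 3 vascular sums, for the meningeal sum of 549 CPM and for the microglia and macrophage sum of 81.2 CPM, and every culture lies below every cortex in all sums but that of cortical neurons, which is higher, and that of the choroid plexus, where 1 culture at 30.8 CPM overlaps the cortices.

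A wider list of 61 vascular genes, of ligands, receptors, barrier targets, basement membrane and further mural genes, was examined in the same way. In cortex 0 of 61 passed the genotype test in edgeR, where 0.386% of all genes did. At an unadjusted p under 0.05 there were 2 of 61, where 10.5% of all genes had one. The 2 were Wnt7a and Wnt7b, the neural Wnt ligands that induce barrier properties in brain endothelium. Their log2 fold changes were -0.20 ± 0.09 and -0.23 ± 0.09 (SE, edgeR FDR = 0.45 and 0.379), and they were named after their values were seen. Of the 61, 36 were positive, where 49.4% of all genes were, and the median log2 fold change was 0.04. Phf6-/Y replicate 4 was the highest cortex in 38 of 61, where it was the highest for 11.5% of all genes. The 38 include all 8 of the laminins, nidogens and other basement membrane genes. In neurons 46 of 61 could be tested, 0 passed and 4 had an unadjusted p under 0.05, where 0.273% and 10.3% of all genes did. Control neurons were lower than control cortex in 50 of 61 and higher in 1, where 27.3% and 24.8% of all genes were. Only 46 of the 61 passed the filter in neurons, and of the 8 further mural genes only 2. The rest entered that comparison only through cortex. Their part in these counts, and in the median shares given last, is a description. The 1 higher gene was Nrp1, a VEGF and semaphorin co-receptor that neurons also use, at a log2 fold change of 1.55 ± 0.17 (edgeR FDR = 1.96e-06). The median level in control neurons was 53.9% of cortex for the 14 ligands, 38.1% for the 15 receptors and co-receptors, 16.8% for the 16 targets and junctions, 15.9% for the 8 basement membrane genes and 6.93% for the 8 further mural genes.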

How the data were processed

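The deposited values are raw counts per gene, made by the authors with Rsubread alignment to mm10 and featureCounts, and not normalized. Libraries were made with a stranded kit from E15.5 cortex and from neurons taken at E16.5 and cultured; the strand setting of the counting is not given in the sources used here. The 15 sample files equal the series table. Rows with no gene identifier held 0.349 to 0.605% of the counts and were left out, as were pseudogenes, ribosomal RNA genes, unmatched identifiers and genes with predicted names. Names and positions came from RefSeq (GRCm38.p6).

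Genes were filtered with filterByExpr, scaled by TMM and tested with edgeR 4.0.16 (robust quasi-likelihood F-test), with Benjamini-Hochberg adjustment over all genes tested at 0.05. Genotype was tested in each tissue with litter as a fixed term. Litter numbers in the labels pair the samples; replicate numbers do not. Neurons were compared with cortex in 1 fit of the 4 groups without litter. Levels are CPM with TMM over all libraries, and RPKM divides by the deposited length. Alternatives were no litter term, litter as a random term, other scalings, DESeq2 1.42.0, limma-trend (limma 3.58.1), no filter, only the groups compared, and leaving out each library. The scripts were tested on simulated counts. The sources do not say that foetuses were pooled. Depth of 16858007 to 31157700 counts makes values under 3 counts per group floors.

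The 36 genes, the wider lists and the windows to print were chosen with earlier results of these data known. All 36 are accounted for; values per library are given for the gene with the smallest p in each genotype comparison, the highest gene per length of each role, genes at or near 0 in neurons and those high in neurons. Pecam1, Slco1c1, Acta2, Kdr and others were added after their values were seen.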

Additional observations from a re-analysis of the deposited data

Results flagged for a closer look

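Of 82 groups of 4 or 5 libraries examined (each gene, and the sum of each marker list, in Phf6-/Y cortex and in Phf6-deleted neurons), 18 had a library far from the others by Dixon's ratio at the 95% level. Chance alone marks about 1 in 20, and genes of the same library are not independent. In Phf6-/Y cortex all 12 were high in replicate 4. These were Cdh5 at 53.4 CPM (others 19.9 to 27.7), Flt4 at 13.0, Tek at 24.3, Ets1 at 52.5, Slco1a4 at 2.86, Abcg2 at 23.8, Anpep at 11.4, Acta2 at 6.57 (others 0.752 to 2.02), Col4a1 at 553 and Col4a2 at 338 CPM. The meningeal fibroblast sum of 549 CPM and the choroid plexus sum of 377 CPM were the other two. Their part in the 10 vessel genes was not tested.

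In Phf6-deleted neurons Emcn at 0.446 CPM and Abcc9 at 0.636 CPM were high in replicate 3, as was the choroid plexus sum at 30.8 CPM (others 10.9 to 13.5), and Flt4 was at 0 there. Tie1 was at 0.0985 CPM in replicate 1, which is 2 counts, and at 0 in the others. Slco1c1 was at 30.9 CPM in replicate 2 against 19.6 to 19.8 CPM in the others. Between the tissues no genotype effect of the 36 genes differed at an FDR of 0.05 (edgeR interaction, 1 at an unadjusted p under 0.05, and DESeq2 0 with 2), and 2 of all genes did.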

How the results depend on the processing

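The number of the 36 genes passing the genotype test in cortex was 0 under every alternative, and in neurons it was 0 except for 3 with no filter on low counts and 0 to 1 with a library left out. Genes with a positive log2 fold change in cortex ran from 21 to 33 with a library left out, and in neurons from 10 to 15, with 23 of 34 tested when no filter was used. Without the replicate block of litter, 0 passed in cortex, where 29 were positive, and 0 in neurons, where 16 were positive. For control neurons against control cortex, genes called ran from 32 to 35 with a library left out, where 44.6% to 53.3% of all genes were called. Lower ones ran from 30 to 33, higher ones from 1 to 2, and those lower by at least 2-fold from 30 to 32. With litter as a random replicate block 33 were called, where 51.6% of all genes were. For Phf6-deleted samples the ranges with a library left out were 34 to 35, 32 to 33, 2 to 2 and 31 to 31, where 53.8% to 58.3% of all genes were called. Summed endothelial levels in neurons, transporters included, were 91.5 CPM in controls and 80.3 CPM in Phf6-deleted cultures (means). The transporters made up 75 and 60.3 CPM of these. In the same order the junction and surface genes summed to 7.7 and 9.06 CPM, the receptors to 2.91 and 4.71 CPM and the transcription factors to 5.85 and 6.2 CPM. By library totals the endothelial sums were 87.2 and 75.5 CPM. That scaling moved the median of all genes by more than 0.1, from -0.04 to -0.18, between neurons and cortex. The log2 fold change of Abcg2 in controls ran from -0.20 to 0.083 with a library left out, the last without control cortex replicate 3. That of Slco1a4 in Phf6-deleted samples ran from -2.65 to 0.040, the last without Phf6-/Y cortex replicate 4. The cause was not tested. None of the 36 passed the interaction test under any alternative run. Over all genes, calls in cortex moved from 57 to 199 by DESeq2, 114 with no filter and 1 without the litter block, and in neurons from 38 to 62, 297 and 1, with 73 by library totals. In neurons 16 of 36 genes had too few counts for a genotype test.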
